A study of Mus musculus with 12 samples.

Results

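The 10 genes described here are Toll-like receptor genes of the mouse (Tlr1, Tlr2, Tlr3, Tlr4, Tlr6, Tlr7, Tlr8 and Tlr13), the co-receptor gene Cd14 and the adaptor gene Myd88. Each was taken from the row of the expression table whose annotation gave that symbol alone, and the 10 genes are part of 19938 genes that have such a row. Each of the 10 had 1 row on the array, and all 10 passed the filter on low signal. RNA from whole ankle joints of C57BL/6 mice was hybridised to Affymetrix Mouse Gene 1.0 ST arrays. The 4 groups were Mmp8-/- arthritic mice, Mmp8-/- control mice without arthritis, Mmp8+/+ arthritic mice and Mmp8+/+ control mice without arthritis, with 3 separate mice in each. Mmp8-/- mice lack the neutrophil collagenase MMP-8 in every cell, in the C57BL/6 background that the Mmp8+/+ mice share. Arthritic mice received 150 µl of serum from K/BxN mice intraperitoneally on days 0 and 2 and were killed on day 7. The mice were males according to the submitters, and arthritis was induced at 6 to 8 weeks of age.

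K/BxN serum carries autoantibodies that form immune complexes in joints and bring on arthritis through innate cells. Toll-like receptors bind molecules of microbes and of damaged tissue. Tlr2, Tlr1, Tlr6 and Tlr4 act at the cell surface, where Tlr2 pairs with Tlr1 or Tlr6 to bind lipoproteins and Tlr4 binds lipopolysaccharide that Cd14 hands over. Tlr3, Tlr7, Tlr8 and Tlr13 act in endosomes and bind RNA. Myd88 carries the signal of all of them except Tlr3, which signals through the adaptor Ticam1, and the signal ends in NF-κB and interferon regulatory factors. Macrophages, neutrophils and synovial fibroblasts of the joint carry several of these receptors.

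Promoters are shown for 3 genes on which the results turn, Tlr2 and Myd88, which were higher in arthritic joints, and Tlr3, which was lower. RefSeq promoters of build GRCm38.p6 were given for 7 of the 10 genes, as 9 start sites, each window running from 250 bases before to 50 bases after the start. Tlr4, Tlr7 and Cd14 are only named. All 3 windows are on the minus strand and are printed 5′ to 3′ along the gene, that of Tlr2 at chr3:83841559-83841858, that of Myd88 at chr9:119339969-119340268 and that of Tlr3 at chr8:45410331-45410630. Capitals mark the letters GGGNNNTTCC of NF-κB sites in Tlr2 and Tlr3 and the letters GAAANNGAAA of interferon response elements in Myd88, searched on both strands.
Tlr2: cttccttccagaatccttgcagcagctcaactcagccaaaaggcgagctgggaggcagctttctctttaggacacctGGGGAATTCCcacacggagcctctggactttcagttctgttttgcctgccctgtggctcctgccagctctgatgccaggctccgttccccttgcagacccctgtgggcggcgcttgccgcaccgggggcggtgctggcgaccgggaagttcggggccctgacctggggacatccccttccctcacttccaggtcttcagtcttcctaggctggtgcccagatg
Myd88: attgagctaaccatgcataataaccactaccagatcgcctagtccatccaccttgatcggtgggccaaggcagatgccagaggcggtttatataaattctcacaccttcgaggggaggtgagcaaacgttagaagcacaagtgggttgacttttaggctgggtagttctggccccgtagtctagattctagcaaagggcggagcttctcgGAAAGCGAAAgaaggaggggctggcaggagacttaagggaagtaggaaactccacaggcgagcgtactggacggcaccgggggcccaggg
Tlr3: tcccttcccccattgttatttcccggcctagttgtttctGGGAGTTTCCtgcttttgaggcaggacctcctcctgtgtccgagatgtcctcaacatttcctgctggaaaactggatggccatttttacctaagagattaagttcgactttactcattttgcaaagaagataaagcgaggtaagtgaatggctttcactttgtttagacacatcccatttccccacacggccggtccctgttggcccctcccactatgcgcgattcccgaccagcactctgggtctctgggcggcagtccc
The NF-κB letters were in 3 of the 9 windows, in Tlr2 at position -173, in Tlr3 at position -211 and at the second start site of Tlr6 at position -99, counted from the start. They were in 5.56% of 32851 mouse promoters of the same length. The interferon letters were in 2 of the 9 windows, in Myd88 at position -40 and at the first start site of Tlr6, and in 3.44% of all promoters. Tlr2 and Tlr3 both held NF-κB letters and differed with arthritis in opposite directions, as described next. These matches are a description of the letters and not of bound sites.

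Values are log2 RMA signals. The medians of the 12 arrays ran from 6.74 to 6.82. Mmp8 was measured at 5.54, 4.64 and 4.67 in Mmp8-/- arthritic mice, at 4.82, 10.65 and 5.05 in Mmp8-/- control mice, and between 10.21 and 11.16 in the 6 Mmp8+/+ mice. The second of the arrays labelled Mmp8-/- control thus had the Mmp8 signal of Mmp8+/+ joints and went against its label. Xist, the RNA of the inactive X chromosome of females, was at 10.92 in Mmp8-/- control mouse 1 and at 10.42 in Mmp8+/+ control mouse 1, against 4.66 to 5.41 on the other 10 arrays, which went against the submitters' statement on sex. Mmp8-/- arthritic mouse 1 stood apart in another way, with a mean correlation of 0.952 with its group where the other 11 arrays had 0.961 to 0.978. Many calls with arthritis and the genotype comparisons are also given without 1 or more of these 4 arrays, and no run left out all 4 together.

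Across the 12 arrays, arthritis separated the members into 3 sets. Averaged over the genotypes, Cd14, Tlr2, Tlr1, Myd88 and Tlr13 were higher in arthritic joints, Tlr3, Tlr7 and Tlr4 were lower, and Tlr6 and Tlr8 were not called (limma, Benjamini-Hochberg adjusted p under 0.05 over all features tested). These 8 of 10 compare with 41.9% of all features called in the same comparison, 19.8% higher and 22.1% lower. The median difference of the 10 genes was 0.26 log2, against 0.02 over all features. The 6 arthritic and the 6 control arrays did not overlap for 5 of the 10 genes, higher for Cd14, Tlr2 and Myd88 and lower for Tlr3 and Tlr4, where 19.3% of all features did not overlap, 7.47% higher and 11.8% lower. Without the arrays that went against their labels or the stated sex, 3 of the 10 were called in the averaged comparison (Cd14, Tlr2 and Myd88), where 14.5% of all features were. The joint is a mixed tissue, so fewer cells of a type and less RNA per cell cannot be told apart.

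**Figure D1:**
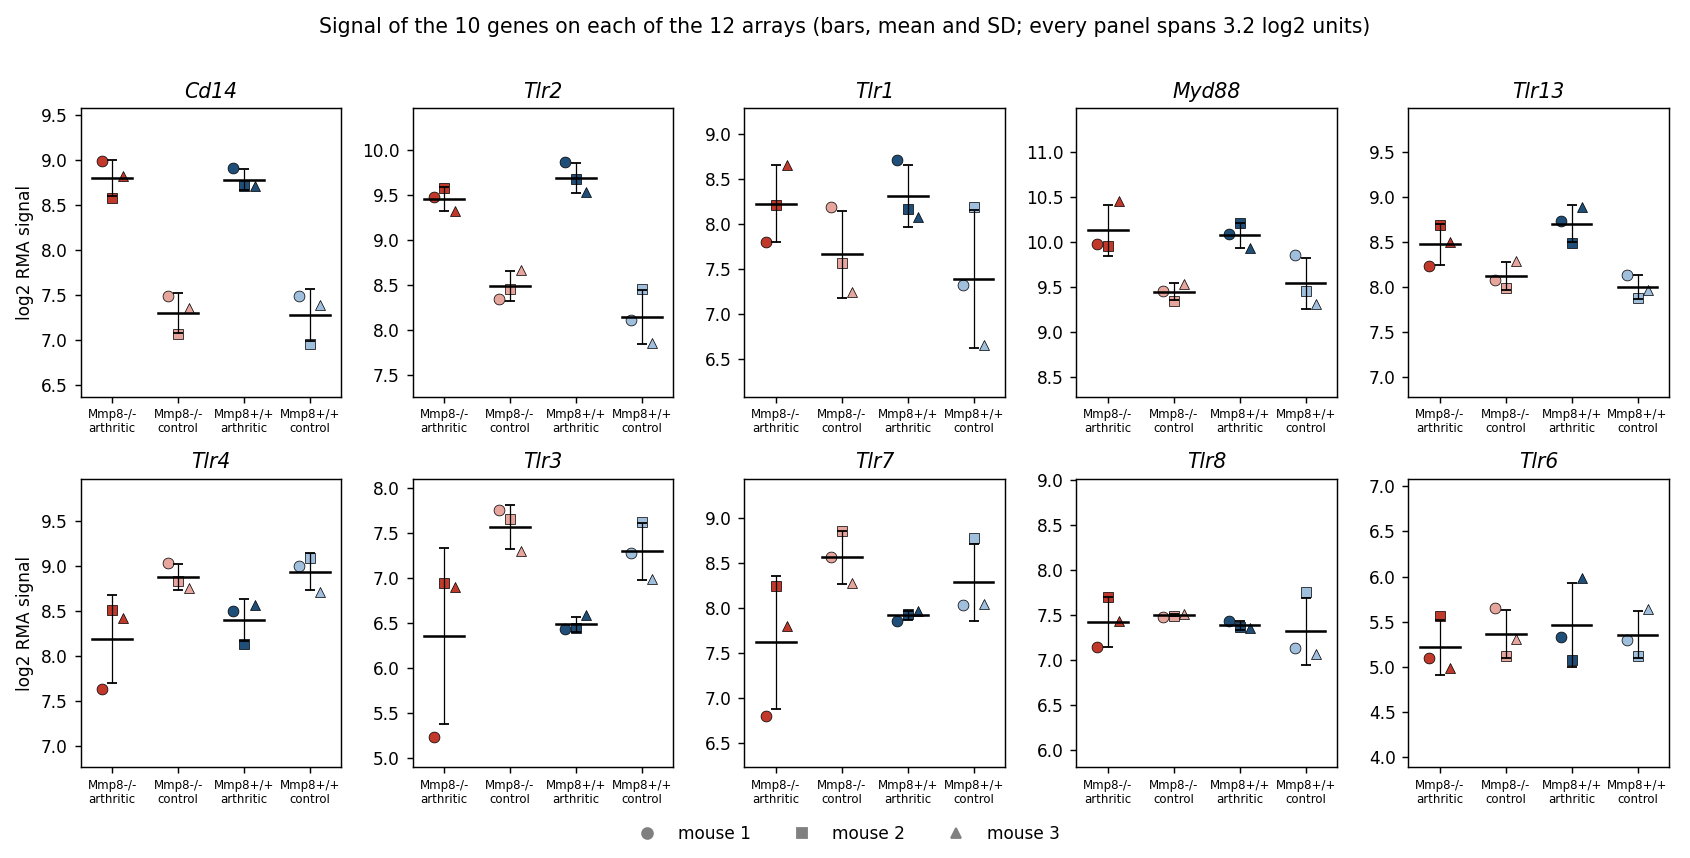
Log2 RMA signal (y axis) of each of the 10 genes in the 4 groups (x axis), with a point per mouse, the group mean as a thick bar and the SD as a thin bar (n = 3). Cd14 lay between 8.58 and 8.99 in the 6 arthritic joints and between 6.95 and 7.49 in the 6 control joints, whereas Tlr3 was lower in arthritic joints and had its lowest point, 5.24, in Mmp8-/- arthritic mouse 1.

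Cd14, the lipid-anchored co-receptor that passes lipopolysaccharide to Tlr4 and also assists Tlr2, had the highest ratio among the 10 genes, 2.83-fold higher in arthritic joints averaged over the genotypes. It was at 8.99, 8.58 and 8.82 in Mmp8-/- arthritic joints and at 7.49, 7.06 and 7.35 in Mmp8-/- control joints. Mmp8+/+ joints had 8.91, 8.71 and 8.71 with arthritis and 7.49, 6.95 and 7.39 without. Every arthritic joint was above every control joint, by more than 1 log2 unit between the nearest arrays. The difference was 1.50 ± 0.18 log2 (SE) in Mmp8-/- mice (limma adjusted p = 7.554e-05) and 1.50 ± 0.18 in Mmp8+/+ mice (limma adjusted p = 7.142e-05). Cd14 was called in both genotypes under every alternative run, with the difference between 1.33 and 1.65 log2.

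Tlr2, the receptor for bacterial lipoproteins, was the receptor with the largest rise. Its signal was 9.48, 9.58 and 9.32 in Mmp8-/- arthritic joints and 8.34, 8.46 and 8.66 in Mmp8-/- control joints. The Mmp8+/+ values were 9.86, 9.67 and 9.53 in arthritic and 8.11, 8.46 and 7.86 in control joints. All 6 arthritic joints again lay above all 6 control joints. The difference was 0.97 ± 0.18 log2 in Mmp8-/- mice, a 1.96-fold ratio (limma adjusted p = 0.001751), and 1.54 ± 0.18 log2 in Mmp8+/+ mice, a 2.92-fold ratio (limma adjusted p = 4.085e-05). The rise in Mmp8+/+ mice was called under every alternative run, and that in Mmp8-/- mice under all but the removal of the 3 arrays that went against their labels or the stated sex, where it was 0.79 log2 with an adjusted p of 0.1876.

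Tlr1 and Tlr6, the partners of Tlr2, lie next to each other on chromosome 5, and of them Tlr1 was called in the averaged comparison. The difference between them was not tested. Tlr1 was at 7.80, 8.21 and 8.65 in Mmp8-/- arthritic joints and at 8.18, 7.56 and 7.24 in Mmp8-/- control joints. Arthritic Mmp8+/+ joints had 8.71, 8.16 and 8.07 and control Mmp8+/+ joints 7.32, 8.18 and 6.65. The groups overlapped in both genotypes, and the control joints of Mmp8+/+ mice spread over more than 1 log2 unit. Tlr1 missed the threshold in each genotype alone, with 0.56 ± 0.34 log2 in Mmp8-/- mice (limma adjusted p = 0.2387) and 0.93 ± 0.34 log2 in Mmp8+/+ mice (limma adjusted p = 0.07225). The averaged difference of 0.74 ± 0.24 log2 passed it (limma adjusted p = 0.02424). That call was lost without Mmp8-/- arthritic mouse 3 (adjusted p = 0.05635), Mmp8-/- control mouse 3 (0.05703), Mmp8+/+ arthritic mouse 1 (0.06303) or Mmp8+/+ control mouse 3 (0.05566), with differences of 0.56 to 0.65 log2.

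Tlr6 was measured between 4.98 and 5.56 in Mmp8-/- arthritic joints, between 5.12 and 5.65 in Mmp8-/- control joints, between 5.07 and 5.98 in Mmp8+/+ arthritic joints and between 5.12 and 5.64 in Mmp8+/+ control joints. The 4 groups overlapped. Its mean of 5.35 over the 12 arrays was below 5.82, the 95th percentile of 1035 features for odorant receptors, which served as a background level because joints are not known to use them. The means of the other 9 genes lay above it, although Tlr3 was below it, at 5.24, in Mmp8-/- arthritic mouse 1. The averaged difference of Tlr6 was -0.02 log2 with a 95% interval of -0.38 to 0.34 (limma adjusted p = 0.9401). A difference of either sign within that interval was compatible with the values. The interval is not a limit of detection.

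Tlr4, the lipopolysaccharide receptor, moved opposite to its co-receptor Cd14. It was at 7.63, 8.51 and 8.42 in Mmp8-/- arthritic joints and at 9.03, 8.83 and 8.75 in Mmp8-/- control joints. The signal was 8.50, 8.13 and 8.56 in Mmp8+/+ arthritic joints and 9.0, 9.09 and 8.71 in Mmp8+/+ control joints. Every arthritic joint was below every control joint, with a gap of less than 0.2 log2 between the nearest. The averaged difference was -0.61 ± 0.16 log2, which is 1.53-fold lower (limma adjusted p = 0.006839). It was -0.53 log2 without the 3 arrays that went against their labels or the stated sex. Tlr4 passed the threshold in Mmp8-/- mice (-0.68 ± 0.22 log2, limma adjusted p = 0.03926) and missed it in Mmp8+/+ mice (-0.54 ± 0.22 log2, limma adjusted p = 0.1018). Without Mmp8-/- arthritic mouse 1, its lowest array, it was the other way round, with -0.40 log2 in Mmp8-/- mice (adjusted p = 0.162) and -0.54 log2 in Mmp8+/+ mice (adjusted p = 0.03019). The call in Mmp8-/- mice was also lost without any of the Mmp8-/- control arrays (adjusted p from 0.05582 to 0.1399).

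Of the endosomal receptors, Tlr3, the receptor for double-stranded RNA, had the largest fall. It was at 5.24, 6.95 and 6.90 in Mmp8-/- arthritic joints and at 7.76, 7.66 and 7.30 in Mmp8-/- control joints. In Mmp8+/+ mice it was at 6.44, 6.45 and 6.59 in arthritic and at 7.28, 7.63 and 6.99 in control joints. All arthritic joints were below all control joints, and Mmp8-/- arthritic mouse 1 was far below the rest and below the odorant receptor level of 5.82. The averaged difference was -1.01 ± 0.24 log2, or 2.01-fold lower (limma adjusted p = 0.004797). It was -0.88 log2 without the 3 arrays that went against their labels or the stated sex. Without Mmp8-/- arthritic mouse 1 it was -0.73 log2 (limma adjusted p = 0.001077). In Mmp8-/- mice the difference was -1.21 ± 0.34 log2 (limma adjusted p = 0.02331) with this mouse and -0.65 log2 (adjusted p = 0.04843) without it. In Mmp8+/+ mice the difference of -0.81 ± 0.34 log2 missed the threshold (limma adjusted p = 0.1115) and passed it when that Mmp8-/- mouse no longer entered the shared spread (adjusted p = 0.00565). Without Mmp8-/- control mouse 1 or 2 the call in Mmp8-/- mice was lost (adjusted p = 0.08795 and 0.06513).

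Tlr7, a receptor of single-stranded RNA, lies beside its relative Tlr8 on the X chromosome, and of the pair Tlr7 was called. Tlr7 was at 6.80, 8.24 and 7.80 in Mmp8-/- arthritic joints and at 8.56, 8.85 and 8.27 in Mmp8-/- control joints. In Mmp8+/+ mice it was at 7.85, 7.93 and 7.96 in arthritic and at 8.03, 8.77 and 8.04 in control joints. The groups did not overlap within either genotype, but Mmp8-/- arthritic mouse 2 was above 2 of the Mmp8+/+ control joints. The averaged difference was -0.66 ± 0.21 log2, or 1.58-fold lower (limma adjusted p = 0.02359). It was -0.95 ± 0.30 log2 in Mmp8-/- mice (limma adjusted p = 0.0375), where it was -0.54 log2 without mouse 1 of the arthritic group (adjusted p = 0.1607), and -0.37 ± 0.30 log2 in Mmp8+/+ mice (limma adjusted p = 0.4073). The call in Mmp8-/- mice was lost as well without Mmp8-/- control mouse 1 or 2 (adjusted p = 0.1016 and 0.1205). The averaged call was lost without Mmp8-/- control mouse 2 (adjusted p = 0.05653) or Mmp8+/+ control mouse 2 (adjusted p = 0.06288), the highest Tlr7 array of its group in each case.

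Tlr8 was between 7.14 and 7.70 in Mmp8-/- arthritic joints, between 7.48 and 7.51 in Mmp8-/- control joints, between 7.35 and 7.43 in Mmp8+/+ arthritic joints and between 7.06 and 7.75 in Mmp8+/+ control joints. The ranges of arthritic and control joints overlapped in both genotypes, and the averaged 95% interval was -0.29 to 0.29 log2 (limma adjusted p = 0.9957). Tlr13, which in mice binds bacterial ribosomal RNA and is also X-linked, was the endosomal receptor that rose. It was at 8.24, 8.69 and 8.50 in Mmp8-/- arthritic joints and at 8.08, 7.99 and 8.29 in Mmp8-/- control joints. In Mmp8+/+ mice it was at 8.73, 8.49 and 8.89 in arthritic and at 8.14, 7.88 and 7.97 in control joints. The groups overlapped in Mmp8-/- mice and not in Mmp8+/+ mice. The averaged difference of 0.53 ± 0.12 log2 was called (limma adjusted p = 0.003164), as was that of 0.71 ± 0.17 log2 in Mmp8+/+ mice (limma adjusted p = 0.009441), whereas 0.35 ± 0.17 log2 in Mmp8-/- mice was not (limma adjusted p = 0.1378). Since these 3 receptors are X-linked, their averaged differences are also given without both control arrays with Xist signal, where they were -0.72 log2 for Tlr7 (adjusted p = 0.04846), -0.05 log2 for Tlr8 (adjusted p = 0.8382) and 0.56 log2 for Tlr13 (adjusted p = 0.01282). Without the 3 arrays that went against their labels or the stated sex, they were -0.57 log2 for Tlr7, -0.05 log2 for Tlr8 and 0.48 log2 for Tlr13.

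Myd88, the adaptor that all these receptors but Tlr3 share, was at 9.98, 9.96 and 10.46 in Mmp8-/- arthritic joints and at 9.46, 9.35 and 9.54 in Mmp8-/- control joints. In Mmp8+/+ mice it was at 10.09, 10.21 and 9.93 in arthritic and at 9.86, 9.46 and 9.31 in control joints. The arthritic joints were all above the control joints, the nearest less than 0.1 log2 apart. The averaged difference was 0.61 ± 0.13 log2, or 1.52-fold higher (limma adjusted p = 0.002191), and this call held under every alternative run. It passed the threshold in Mmp8-/- mice (0.68 ± 0.18 log2, limma adjusted p = 0.01796) and fell just short of it in Mmp8+/+ mice (0.54 ± 0.18 log2, limma adjusted p = 0.05369). The call in Mmp8-/- mice was lost without Mmp8-/- control mouse 1 or 2 or Mmp8-/- arthritic mouse 3 (adjusted p = 0.05667, 0.06264 and 0.05733), and Myd88 was called in Mmp8+/+ mice without Mmp8+/+ control mouse 1 (0.03012) or either of the Mmp8-/- arthritic mice 1 (0.04473) and 3 (0.03659).

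By genotype, 6 of the 10 genes were called with arthritis in Mmp8-/- mice, 3 higher (Cd14, Tlr2 and Myd88) and 3 lower (Tlr3, Tlr7 and Tlr4), where 21.5% of all features were called, 8.05% higher and 13.5% lower. In Mmp8+/+ mice 3 of the 10 were called, all higher (Tlr2, Cd14 and Tlr13), where 18.8% of all features were called, 7.3% higher and 11.5% lower. Quantile normalization of the tested features left 4 genes called higher and 1 called lower in Mmp8-/- mice (20.7% of all features called), and 5 called higher in Mmp8+/+ mice (18.2% of all features). Without the second array labelled Mmp8-/- control, 2 of the 10 were called in Mmp8-/- mice, where 12.8% of all features were. Without it and both arrays with Xist signal only Cd14 was called (1.45 log2, adjusted p = 0.01107), where 2.55% of all features were. Tlr2, Cd14 and Tlr13 were still called in Mmp8+/+ mice without these 3 arrays, where 9.23% of all features were.

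**Figure D2:**
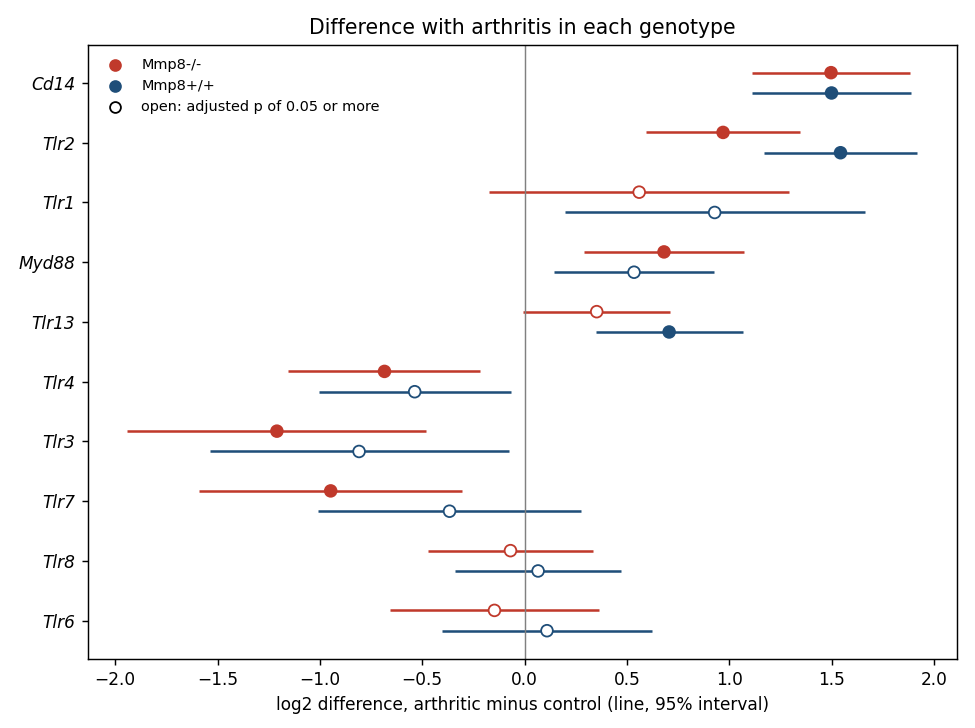
Log2 difference between arthritic and control joints (x axis) of each of the 10 genes (y axis) in Mmp8-/- mice (upper point of each pair) and Mmp8+/+ mice (lower point), with the 95% interval as a line and filled points for an adjusted p under 0.05. The intervals of both genotypes overlap for each gene, and for Tlr2 the points are 0.97 and 1.54.

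Those calls do not compare the genotypes, which was done directly. In arthritic joints, 0 of the 10 genes differed between Mmp8-/- and Mmp8+/+ mice (limma, 0 called by ordinary regression). Of all features, 0.00541% were called. An unadjusted p under 0.05 was reached by 0 of the 10 genes and by 537 of all features tested. The differences, Mmp8-/- minus Mmp8+/+, ran from -0.30 log2 for Tlr7 to 0.05 log2 for Myd88, with 95% intervals that reached from -0.94 to 0.64 over the 10 genes. Without Mmp8-/- arthritic mouse 1 the sign turned for 5 of the 10 (Tlr1, Tlr3, Tlr4, Tlr7 and Cd14), and the differences ran from -0.24 log2 for Tlr2 to 0.43 ± 0.20 log2 for Tlr3, which was -0.13 log2 with all arrays. Tlr3 was then at an unadjusted p under 0.05, as 1 of the 10, and none passed after adjustment (adjusted p = 0.9967 for Tlr3). At that unadjusted threshold were 702 of all features tested. In control joints 0 of the 10 were called as well (limma, 0 at an unadjusted p under 0.05 and 0 called by ordinary regression), with 0% of all features called, differences from -0.09 log2 for Myd88 to 0.34 log2 for Tlr2, and intervals from -0.53 to 1.01. Without the 3 arrays that went against their labels or the stated sex, Mmp8-/- control mouse 3 alone stood for its group. The sign in control joints then turned for 5 of the 10 (Tlr1, Tlr3, Tlr6, Tlr7 and Myd88), and the range was -0.17 log2 for Tlr1 to 0.51 log2 for Tlr2. The change with arthritis differed between the genotypes for 0 of the 10 genes after adjustment (limma interaction, 0 called by ordinary regression). Of all features, 0% were called. An unadjusted p under 0.05 was reached by 588 of all features tested and by 1 of the 10 genes. That gene was Tlr2, whose rise was smaller by 0.57 ± 0.25 log2 in Mmp8-/- mice, with an interaction of -0.57 and a 95% interval of -1.10 to -0.04 (limma unadjusted p = 0.03565, adjusted p = 0.9998). Its interaction was -0.74 log2 without the same 3 arrays (adjusted p = 0.9999) and -0.58 log2 without Mmp8-/- arthritic mouse 1. Without that mouse the interaction of Tlr3 was 0.16 log2, where it was -0.40 log2 with all arrays, and the signs of Tlr4 and Tlr8 turned too. Values that missed the threshold do not show that the genotypes were alike. In arthritic joints, 2 of 4 B cell markers were higher in Mmp8-/- than in Mmp8+/+ mice at an unadjusted p under 0.05 by limma. At that threshold 1 of 11 macrophage and monocyte markers and 1 of 9 neutrophil markers were lower. Keratinocyte markers are described because more of that list passed, a choice made after the values were seen. At an unadjusted p under 0.05, 4 of 4 were lower in Mmp8-/- than in Mmp8+/+ mice (2 of 4 by ordinary regression). That threshold was passed by 537 of all features tested, in either direction. These markers had a median of -1.70 log2, and 0 of 4 were called after adjustment (limma adjusted p = 0.9998). Their list mean was between 7.83 and 8.31 in Mmp8-/- arthritic joints and between 9.30 and 10.59 in Mmp8+/+ arthritic joints, and between 7.87 and 10.35 in Mmp8-/- control joints and between 8.08 and 10.15 in Mmp8+/+ control joints. The part of skin in the genotype comparisons of the 10 genes was not tested.

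The other genes of the pathway were taken as 8 lists, of which 73 of 81 genes were tested. In the comparison averaged over the genotypes 24 of the 73 were higher and 12 lower in arthritic joints, with a median of 0.11 log2, against 19.8% of all features higher and 22.1% lower. Without the 3 arrays that went against their labels or the stated sex, 14 were higher and 3 lower, where 4.68% of all features were higher and 9.8% lower. Of the inducible targets, 13 of 13 tested were higher, with a fitted median of 1.61 log2. Il6, which encodes the cytokine interleukin 6, was between 5.84 and 7.75 in the 6 arthritic joints and between 3.51 and 4.18 in the 6 control joints, so that it passed the filter on low signal through its arthritic joints alone and its place in that count was fixed by the filter. The neutrophil chemokine gene Cxcl2 was between 8.06 and 8.95 in arthritic and between 4.68 and 5.72 in control joints. Both genes lay below the odorant receptor level of 5.82 on all control arrays, so their ratio has only a bound, the arthritic mean over that level. Il6 was at least 2.30-fold higher, and no p-value is given for it because of that filter. Cxcl2 was at least 5.56-fold higher (limma adjusted p = 2.9e-08, which belongs to its fitted difference and not to the bound). With both at their bounds the median of the list was 1.28 log2. The prostaglandin synthase gene Ptgs2 was higher by 2.45 ± 0.18 log2 and the monocyte chemokine gene Ccl2 by 2.14 ± 0.19 (limma adjusted p = 3.16e-07 and 1.11e-06). Without the same 3 arrays 9 of the 13 were called. The list mean lay between 8.08 and 8.37 in Mmp8-/- arthritic joints and between 6.72 and 6.81 in Mmp8-/- control joints, and between 8.03 and 8.33 in Mmp8+/+ arthritic joints and between 6.58 and 6.73 in Mmp8+/+ control joints.

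Among 10 endogenous ligands 5 were higher and 2 lower, with a median of 0.34 log2, where 19.8% of all features were higher and 22.1% lower. The acute-phase protein gene Saa3 was higher by 4.96 ± 0.23 log2, the proteoglycan gene Vcan by 1.56 ± 0.14 and the chaperonin gene Hspd1 by 0.48 ± 0.10, while the chromatin protein gene Hmgb1 was lower by 0.61 ± 0.21, a log2 difference of -0.61. S100a8 and S100a9, which encode the calprotectin that binds Tlr4, differed by 0.26 and 0.04 log2 and were not called. Of 9 genes for endosomal trafficking and receptor cleavage, 5 were called, all higher, and the median was 0.28 log2. The 4 largest were proteases, Ctss (0.62 ± 0.11 log2), Ctsb (0.61 ± 0.12), Lgmn (0.51 ± 0.11) and Ctsk (0.46 ± 0.13), whereas Unc93b1, which escorts the endosomal receptors, differed by -0.00 log2 and was not called.

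Of the 41 genes tested in the other 5 lists, 1 was higher and 10 were lower, where 19.8% of all features were higher and 22.1% lower. Of 7 other receptors and accessory proteins 3 were called, all lower, and the median was -0.54 log2. These were Cd36 (-2.10 ± 0.23 log2), a fatty acid and lipoprotein receptor that fat cells also carry and that assists Tlr2, and the pair Ly86 (-0.72 ± 0.22) and Cd180 (-0.62 ± 0.20), which form a receptor complex of B cells and macrophages. Ly96, the protein that completes the Tlr4 receptor, differed by -0.54 ± 0.27 log2 (limma adjusted p = 0.1148), and the endosomal receptor gene Tlr9 by 0.13 log2. None of 4 other adaptors was called at either sign, with a median of 0.27 log2 (limma adjusted p from 0.0739 to 0.7493, 1 of 4 higher at an unadjusted p under 0.05, 0 called by ordinary regression). Among them Sarm1, with a mean of 5.27 over the 12 arrays, was below the odorant receptor level of 5.82. Of 15 kinases and ubiquitin ligases 4 were called, all lower, the scaffold gene Tab3 (-0.76 ± 0.17 log2), the ligase genes Peli2 (-0.73 ± 0.12) and Peli1 (-0.65 ± 0.15) and the kinase gene Tbk1 (-0.47 ± 0.13). Of 6 transcription factors 1 was called lower, Irf7 (-0.37 ± 0.13 log2), and of 9 inhibitors 1 was higher, Lilrb4a (0.49 ± 0.15), which has a near-identical copy and is uncertain, and 2 were lower, Cyld (-0.47 ± 0.13) and Tollip (-0.32 ± 0.12).

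**Figure D3:**
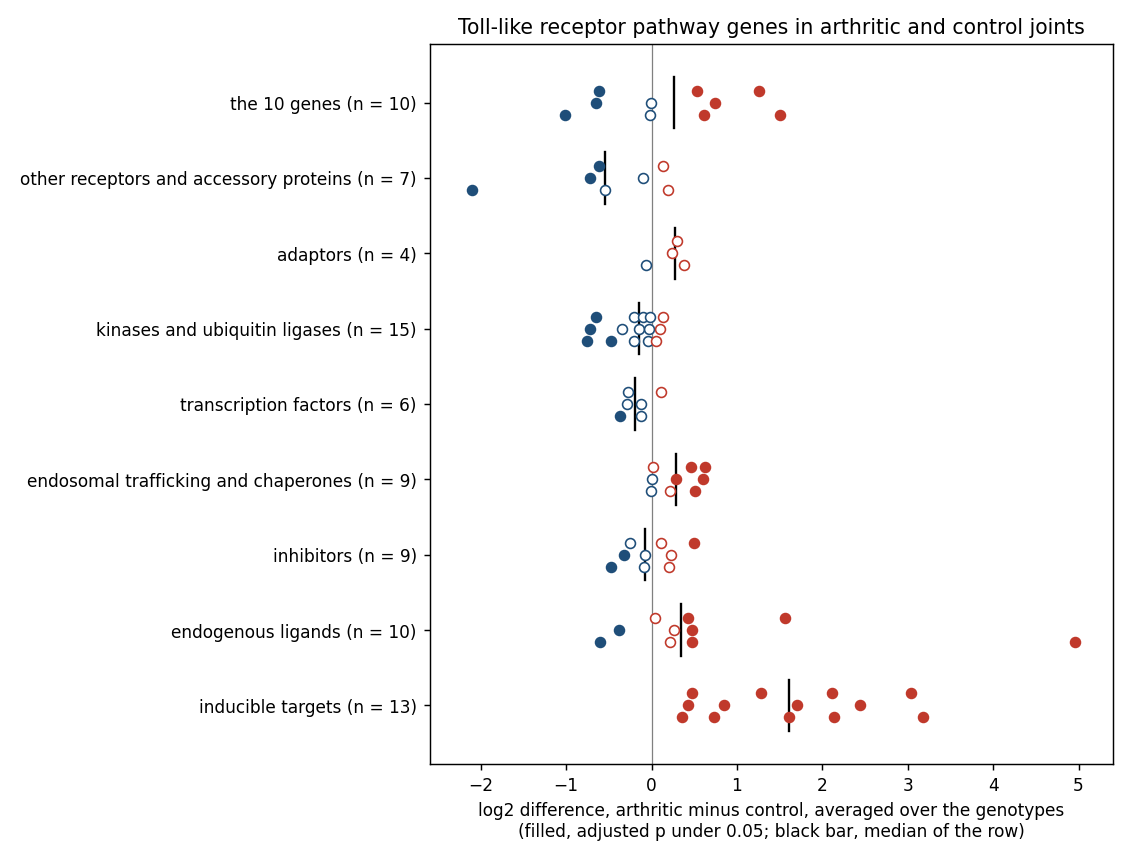
Log2 difference between arthritic and control joints averaged over the genotypes (x axis) for each tested gene of the 8 pathway lists and for the 10 genes (rows), with filled points for an adjusted p under 0.05 and a black bar at the row's median. All 13 inducible targets lie to the right of 0, where the points of Il6 and Cxcl2 are fitted values against control signals at background. Il6 passed the filter on low signal through its arthritic joints alone. Among the kinases and ubiquitin ligases every called gene lies to the left.

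Markers of several cell types were called with arthritis beside the 10 genes. In the same averaged comparison 19.8% of all features were higher and 22.1% lower. Of 11 macrophage and monocyte markers 6 were higher, led by the Fc receptor gene Fcgr1 (1.13 ± 0.13 log2) and the monocyte chemokine receptor gene Ccr2 (0.72 ± 0.20), and 3 were lower, the genes Cd163 (-1.17 ± 0.17) and Mrc1 (-0.53 ± 0.13) of resident macrophages and Mertk (-0.33 ± 0.11). The list mean was between 9.63 and 10.05 in Mmp8-/- arthritic joints and between 9.67 and 9.75 in Mmp8-/- control joints, and between 9.83 and 9.93 in Mmp8+/+ arthritic joints and between 9.54 and 9.82 in Mmp8+/+ control joints. Its lowest arthritic array was Mmp8-/- arthritic mouse 1, the array lowest for Tlr3, Tlr4 and Tlr7. This was not particular to macrophage markers. The same array was the lowest arthritic array in the list means of kinases and ubiquitin ligases (7.90), transcription factors (8.28) and inhibitors (8.63). It was also lowest in other receptors and accessory proteins (8.04) and in endosomal trafficking (11.17), and in none of the remaining lists. Of 9 neutrophil markers 4 were higher, led by Il1r2 (2.00 ± 0.18 log2) and Cxcr2 (1.53 ± 0.15), and 2 were lower, the granule genes Ltf (-0.98 ± 0.23) and Ngp (-0.78 ± 0.20). The neutrophil list mean was between 9.71 and 10.27 in Mmp8-/- arthritic joints and between 9.13 and 10.18 in Mmp8-/- control joints, and between 9.99 and 10.46 in Mmp8+/+ arthritic joints and between 9.98 and 10.24 in Mmp8+/+ control joints.

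Of 5 dendritic cell markers tested 1 was lower, Siglech, which marks plasmacytoid cells that carry Tlr7. It was between 5.19 and 5.76 in arthritic joints, below the odorant receptor level, and between 6.35 and 6.93 in control joints, which makes it at least 1.69-fold lower (limma adjusted p = 2.82e-05). Clec9a and Xcr1 were below that level in all groups. All 4 B cell markers were lower, with a median of -1.92 log2, and the B cell list mean was between 6.67 and 7.59 in Mmp8-/- arthritic joints and between 8.60 and 8.98 in Mmp8-/- control joints, and between 6.32 and 6.79 in Mmp8+/+ arthritic joints and between 8.52 and 9.03 in Mmp8+/+ control joints. Of 5 synovial fibroblast markers Pdpn (2.13 ± 0.19 log2) and Thy1 (0.84 ± 0.12) were higher and Pdgfra (-0.42 ± 0.11) and Prg4 (-0.35 ± 0.10) were lower. All 3 adipocyte and all 4 skeletal muscle markers were lower, with medians of -2.17 and -1.40 log2. Of the other lists, 1 of 5 T cell markers was lower, 2 of 5 cartilage and bone markers were higher and 1 lower, 2 of 4 endothelial markers were lower, and 0 of 4 keratinocyte markers were called (limma adjusted p from 0.5659 to 0.8994, 0 at an unadjusted p under 0.05, 0 by ordinary regression), with medians of -1.04 log2 in Mmp8-/- and 0.72 log2 in Mmp8+/+ mice. The shares over all features were 19.8% higher and 22.1% lower in the averaged comparison. The part of these cell types in the differences of the 10 genes was not tested.

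**Figure D4:**
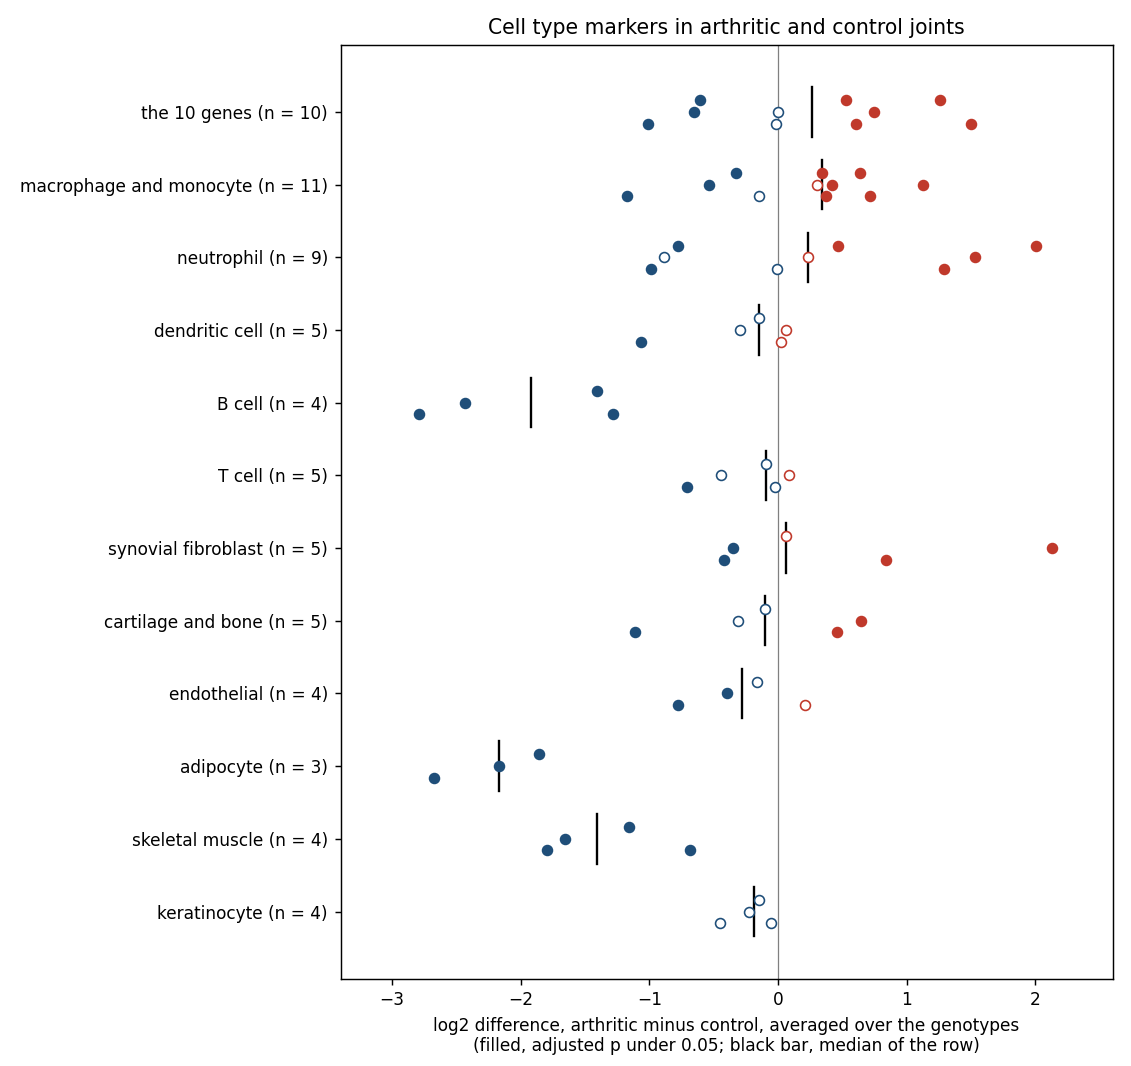
Log2 difference between arthritic and control joints averaged over the genotypes (x axis) for each tested marker of 11 cell type lists and for the 10 genes (rows), with filled points for an adjusted p under 0.05 and a black bar at the row's median. Macrophage and neutrophil markers lie on both sides of 0, and B cell, adipocyte and skeletal muscle markers all lie to the left.

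Over the 12 arrays the genes with the most similar pattern were ranked by Pearson's r among 16956 genes, as a description of arrays that share their groups. Cd14 was followed most closely by Tmem171 (r = 0.993), the LIM domain gene Csrp2 (0.990) and the metalloproteinase inhibitor gene Timp1 (0.986). For Tlr2 these were Mest (0.979), the matrix gene Postn (0.979) and the collagen-modifying enzyme gene Colgalt1 (0.978), and for Myd88 they were Slc35g2 (0.967), Rrad (0.950) and the growth factor gene Pdgfb (0.948). After subtraction of the group means r was 0.879 for Cd14 with Tmem171 and 0.711 for Tlr2 with Mest, which describes genes that were chosen for their r on these arrays. The genes that fell had other neighbours, led by Ap5m1 for Tlr4 (0.980), the noncoding RNA gene Tug1 for Tlr3 (0.983) and Pnrc2 for Tlr7 (0.988), with 0.967, 0.979 and 0.982 after subtraction of the group means and 0.955, 0.962 and 0.976 without Mmp8-/- arthritic mouse 1. Neither set of values leaves out both the group differences and that mouse. The closest genes were Itm2a for Tlr13 (0.959), Spata33 for Tlr1 (0.939), Ergic1 for Tlr8 (0.916) and BC004004 for Tlr6 (0.828).

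Among the 10 genes themselves, r over the 12 arrays was 0.939 for Tlr3 with Tlr4, 0.938 for Tlr3 with Tlr7 and 0.859 for Tlr4 with Tlr7. After subtraction of the group means these were 0.913, 0.909 and 0.781, and without Mmp8-/- arthritic mouse 1 they were 0.863, 0.855 and 0.683. The former still hold that mouse and the latter the group differences. Likeness within groups without that mouse was not computed. Without that mouse the highest r was that of Tlr13 with Cd14 (0.916), followed by Tlr2 with Cd14 (0.894) and Tlr2 with Tlr13 (0.892), so that the order of the pairs rested on it. With all arrays and after subtraction of the group means, r was 0.049 for Tlr13 with Cd14 and 0.002 for Tlr2 with Tlr13. Over all arrays Cd14 and Tlr2 had r of 0.895, and -0.42 after subtraction of the group means, so that they went together between arthritic and control joints and not from mouse to mouse within a group. Tlr2 had r of 0.721 with its partner Tlr1, and 0.415 after subtraction of the group means. With its partner Tlr6 r was -0.09, and -0.41 after subtraction. The mean of Tlr6 was below the odorant receptor level, so its r cannot be set against that of Tlr1. Tlr7 and its neighbour Tlr8 had r of 0.616 over the arrays and 0.839 after subtraction of the group means, although only Tlr7 was called with arthritis. The 0.839 still holds Mmp8-/- arthritic mouse 1, the lowest arthritic array of both genes. Without that mouse r over the arrays was 0.537.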

How the data were processed

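RNA from ankle joints was hybridised to 12 arrays, 1 per mouse. The authors normalized the arrays by RMA, with Partek named in the submitters' processing notes, and deposited log2 values for 28853 features, which were used as deposited. No value columns were left out (0). Of the features, 21789 carried 1 symbol, 1621 several and 5443 none, and 21698 of the first had a gene identifier in RefSeq. Tested were the 18495 features with 1 symbol and the highest mean over 12 arrays (lowest mean 4.93), the number being that of the transcripts kept in the study's methods. One mean per group was fitted with limma 3.58.1 in R 4.3.3, with moderated variances, no covariate, two-sided tests and Benjamini-Hochberg adjustment over all features at 0.05. Errors of differences are SE. A gene stood for its row with the highest mean. From each pathway list up to 4 called genes with the largest averaged difference were named. Other genes of the lists that are named, and the marker genes, were chosen after their values were seen. The 10 genes, the lists and the alternatives were chosen with earlier results of these data known. The procedure was tested on simulated data. Alternatives were the compared groups alone, ordinary regression, trend and robust moderation, array weights, no filter, all features, 2 other scalings and the removal of arrays. The number of arrays limits the precision. The authors' background filter could not be repeated from these values.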

Additional observations from a re-analysis of the deposited data

How the results depend on the processing

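The number of the 10 genes called in Mmp8-/- mice, 6 in the analysis reported, was 3 with the compared groups alone (14.5% of all features called), 3 by ordinary regression (14.3%), 3 without the 2 Xist arrays (9.2%), 2 without the second of the arrays labelled Mmp8-/- control, which had Mmp8 signal (12.8%), and 1 without these 3 arrays (2.55%), where 21.5% of all features were called in the analysis reported, and from 2 to 6 when each array was left out in turn. In Mmp8+/+ mice the number, 3 as reported, was 6 with array weights (26.2%) and 5 after quantile normalization (18.2%), against 18.8% as reported, and from 3 to 6 when arrays were left out. For the averaged difference it was 8 as reported (41.9%), 6 by ordinary regression (35.9%), 3 without these 3 arrays (14.5%) and 7 to 8 when arrays were left out. When each array was left out in turn, the share of all features called ran from 9.93% to 22.2% in Mmp8-/- mice. It ran from 11.2% to 22.9% in Mmp8+/+ mice and from 33% to 43% for the averaged difference. Fewer arrays enter the removals, and otherwise the cause was not tested. Calls between the genotypes and in the interaction stayed at 0 of the 10 under every alternative run. Among all called features in Mmp8-/- mice the share higher was 37.4%, against 47.9% after subtraction of each array's mean and 49.4% after quantile normalization.

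Differences near 0 turned sign. Tlr8 in Mmp8-/- mice (-0.07 log2) was 0.0636 after quantile normalization and -0.206 to 0.0717 when arrays were left out. In Mmp8+/+ mice Tlr6 (0.11) was -0.0197 after quantile normalization and -0.15 to 0.305 when arrays were left out, and Tlr8 (0.07) was -0.0248 without the Xist arrays and -0.0248 without these 3 arrays, and -0.0589 to 0.283 when arrays were left out. Averaged, Tlr6 (-0.02) was 0.0294 with array weights, 0.0297 after mean subtraction and 0.0417 without the Xist arrays, and -0.149 to 0.0788 when arrays were left out. Averaged, Tlr8 (-0.00) was 0.0532 with array weights, 0.0472 after mean subtraction and 0.12 after quantile normalization, and -0.0699 to 0.107 when arrays were left out. The genotype difference of Myd88 in control joints (-0.09) was 0.0617 without the Xist arrays, 0.155 without these 3 arrays and -0.21 to 0.067 when arrays were left out, and in arthritic joints (0.05) it was -0.11 to 0.14. The interaction of Myd88 (0.15) was -0.0074 without the Xist arrays, -0.101 without these 3 arrays and -0.0177 to 0.264 when arrays were left out. The genotype difference of Tlr7 in arthritic joints (-0.30) was -0.61 to 0.11 when arrays were left out, and in control joints (0.28) it was -0.139 without these 3 arrays. That of Tlr3 in arthritic joints (-0.13) was 0.137 with array weights and -0.425 to 0.431 when arrays were left out, and in control joints (0.27) it was -0.0113 without these 3 arrays. The interaction of Tlr3 (-0.40) was -0.696 to 0.161 when arrays were left out.

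Without these 3 arrays the neutrophil median was -0.16 log2, against 0.23 with all arrays. The lone Mmp8-/- control array left was assumed to vary like the other groups. An average over all rows of a gene was not run because each of the 10 genes had 1 row. No paired analysis was run because each array came from a separate mouse. The labels carry no replicate numbers, and the mouse numbers used here are the order of the samples within each group.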
